A study of Brachypodium distachyon with 35 samples.

Results

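The transcripts of all 96 BdbZIP genes were followed in seedlings of Brachypodium distachyon accession Bd21-3 after 1 h and 6 h of methyl jasmonate (MeJA). The sample labelled MeJA-1h and the sample labelled MeJA-6h were each set against CK2, the untreated sample that the labels assign to them, so 3 of the 35 samples of the series were used. Both MeJA samples received 100 µM MeJA and all 3 samples were whole seedlings, with no mutation or transgene named, which the labels put at 20 days and the treatment description at 2 weeks. The seedlings were grown on sucrose-containing agar medium under long days. Each condition has 1 sample, so no difference given here has a replicate check and no p-value was computed. CK2 is a single sample for both times, and the time at which it was harvested is not given in the sources used here, so time of day, handling and MeJA cannot be told apart. The plate held only bZIP genes and the reference gene BdGAPD (glyceraldehyde-3-phosphate dehydrogenase), so neither the tissue nor the jasmonate response could be checked with marker genes outside the family.

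Jasmonates are lipid-derived hormones of wounding, insect and pathogen defence. In Arabidopsis, MeJA is converted to jasmonic acid and then to its isoleucine conjugate, which binds the COI1 receptor, leads to the breakdown of JAZ repressors and frees MYC2, a factor that binds the G-box. The bZIP factors bind DNA with a basic region, dimerise through a leucine zipper and recognise elements with an ACGT core, the G-box among them. In Arabidopsis, the TGA group of bZIP factors works with NPR1 in salicylic acid responses and also takes part in jasmonate and ethylene defence responses and in the response to reactive oxylipins. The ABF and ABI5 group acts in abscisic acid signalling.

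The measured quantity was Ct, the number of PCR cycles needed for the fluorescence to reach a set level, and 1 cycle less stands for about 2-fold more template. BdGAPD itself came up later under MeJA, with a Ct of 15.72 in CK2, 17.71 at 1 h and 18.44 at 6 h. The BdbZIP genes moved with it. Their Ct was higher than in CK2 in 91 of 96 genes at 1 h and in 92 at 6 h, by a median of 1.64 cycles at 1 h and 2.52 cycles at 6 h. A log2 change was therefore taken as −ΔΔCT, the fall in Ct from CK2 relative to that of BdGAPD, and a positive value means more transcript relative to BdGAPD. The deposited fold changes of both MeJA samples run the other way, since they equal 2 raised to the Ct of the treated sample minus that of CK2, with no BdGAPD term, in 93 of 96 genes at 1 h and 94 at 6 h within 0.1 on the log2 scale. The deposited normalized values of CK2 do follow 2 to the power of −ΔCT, in 93 of 96 genes within 0.2, but the sources used here do not settle which table carries the intended direction for the MeJA samples. Every direction given here is that of the Ct table. Less RNA per cell and fewer cells expressing a gene cannot be told apart in whole seedlings.

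The error of the wells was read from 8 pairs of BdbZIP genes that were measured with identical primers, so that each pair should give 1 value. In CK2 and both MeJA samples, the wells of a pair differed by 0.02 to 2.80 cycles, with a median of 0.56. The largest gap, 2.80 cycles, was that of BdbZIP50 and BdbZIP51 at 1 h, a pair that differed by 1.39 cycles in CK2 and 0.40 at 6 h. The other pairs stayed within 1.55 cycles. Over 27 treated samples the pairs gave an SD of 0.97 for a single log2 change, and the MeJA samples alone gave 0.48. Differences beyond 1.93, which is 2 times the larger SD, are called beyond the well error below. This error leaves out BdGAPD and the variation between plants.

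**Figure D1:**
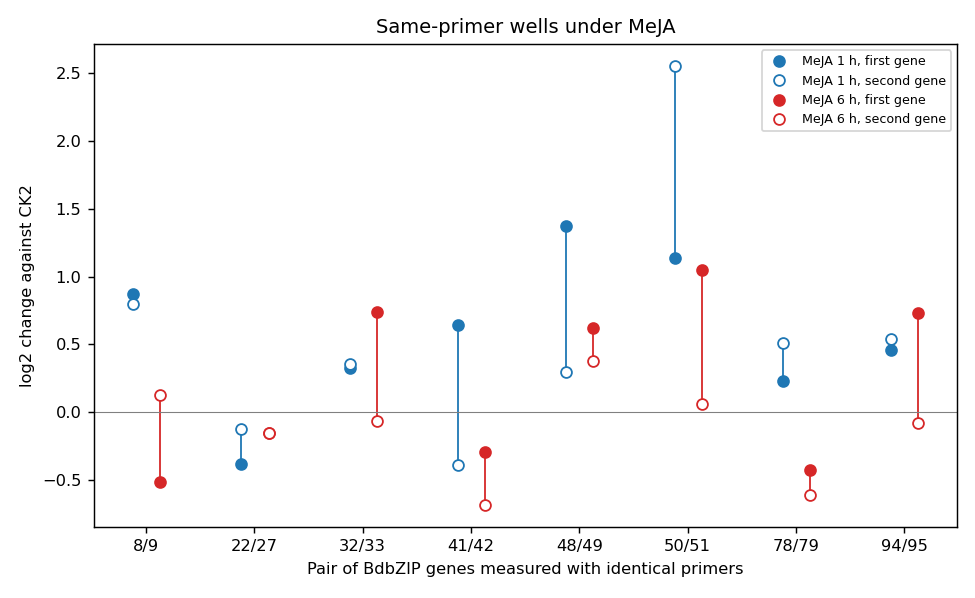
Log2 change against CK2 (y axis) for the 8 pairs of BdbZIP genes with identical primers (x axis, BdbZIP numbers), with 1 point per gene and sample and a line joining the wells of a pair. The longest line is that of BdbZIP50 and BdbZIP51 at 1 h, at 1.14 and 2.55.

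At 1 h the bZIP genes were mostly above CK2 relative to BdGAPD, with 72 of 96 log2 changes above 0. All 96 changes share 1 BdGAPD value per sample, and before it was subtracted 91 of 96 genes had a later Ct than in CK2. Relative to BdGAPD, 23 of 96 genes were at least 2-fold higher (24% of all genes), 2 were at most 0.5-fold (2.08%) and the median log2 change was 0.34. With the median BdbZIP gene of each sample as the reference, 11 genes were higher (11.5%) and 4 lower (4.17%), and with no reference 1 was higher (1.04%) and 73 lower (76%). Beyond the well error were 6 higher genes (6.25%) and 1 lower gene (1.04%). Of these higher genes only BdbZIP17 had a Ct under 30 in CK2, so for the others the well error is poorly known. BdbZIP6 (bradi1g17335) was the highest. Its Ct was 32.63 in CK2 and 31.46 at 1 h, a log2 change of 3.16 or 8.94-fold, and at 6 h it was 32.93, which left the log2 change at 2.42. BdbZIP25 (bradi1g64550) was also high at both times, with Ct values of 31.85 in CK2, 31.72 at 1 h and 32.15 at 6 h and log2 changes of 2.12 and 2.42. BdbZIP66 (bradi3g38840) gave 30.46, 30.49 and 31.94 cycles, or log2 changes of 1.96 and 1.24. These 3 genes thus stayed above CK2 through 6 h relative to BdGAPD, although all 3 had a later Ct than in CK2 at 6 h. Other untreated samples gave mixed signs at 6 h. BdbZIP6, BdbZIP25 and BdbZIP66 were at 3.16, −0.08 and −0.22 against CK1 and at −1.55, 0.54 and −3.15 against CK3.

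Of the other leading genes of the first hour with Ct under 35, none was past 2-fold at 6 h. BdbZIP1, at 2.13 at 1 h, is described with the late genes and the G-box type. BdbZIP51 (bradi2g56096) had Ct values of 31.04 in CK2, 30.48 at 1 h and 33.70 at 6 h, so its log2 change was 2.55 at 1 h and 0.06 at 6 h, but its same-primer partner BdbZIP50 (bradi2g56080) gave 1.14 and 1.05. The values of BdbZIP51 thus rest on 1 well that its partner did not match. BdbZIP17 (bradi1g43660) had 28.85, 28.58 and 32.14 cycles and log2 changes of 2.26 and −0.57. BdbZIP87 (bradi4g35370) had 24.24, 24.41 and 27.55 cycles and log2 changes of 1.82 and −0.59. For both, CK2 and the 1 h sample differed by under 1 cycle while BdGAPD came up 1.99 cycles later.

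Only BdbZIP96 and BdbZIP10 were at most 0.5-fold at 1 h. BdbZIP96 (bradi5g23340), a TGA-type gene with Arabidopsis TGA7 as its listed homologue, had Ct values of 28.25 in CK2, 32.19 at 1 h and 30.45 at 6 h. Its log2 change was −1.95 at 1 h, or 0.26-fold, and 0.52 at 6 h. BdbZIP10 (bradi1g29920) was at 0.5-fold with Ct values of 34.41, 37.40 and 37.75, where amplification is late. The next lowest were BdbZIP82 at −0.74, BdbZIP80 at −0.72, BdbZIP20 and BdbZIP36 at −0.71 and BdbZIP18 at −0.66, none past 0.5-fold.

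At 6 h the values spread further in both directions. In all, 19 genes were at least 2-fold higher (19.8%) and 9 were at most 0.5-fold (9.38%), with a median log2 change of 0.20 and a range from −2.05 to 5.04, and with no reference 2 were higher (2.08%) and 87 lower (90.6%). Beyond the well error were 8 higher genes (8.33%) and 1 lower gene (1.04%). BdbZIP75 (bradi4g02570) had the largest change among the genes with Ct under 35. Its Ct was 25.21 in CK2, 27.22 at 1 h and 23.23 at 6 h, so it was level with CK2 at 1 h (log2 change −0.02) and 26.0-fold higher at 6 h (4.70). BdbZIP44 (bradi2g52590) gave 29.96, 31.16 and 29.44 cycles, or log2 changes of 0.79 and 3.24. BdbZIP84 (bradi4g32920) gave 25.38, 27.51 and 25.18 cycles, or −0.14 and 2.92. These 3 genes and BdbZIP60 were the 4 whose Ct at 6 h was below that of CK2 even before BdGAPD was subtracted. BdbZIP2 (bradi1g05480), whose listed rice homologue is RISBZ1, an activator of seed storage protein genes, followed with 20.89, 21.62 and 21.62 cycles and log2 changes of 1.26 and 1.99.

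BdbZIP60 (bradi3g07540) reached 5.04 at 6 h, but from late Ct values of 36.87 in CK2, 38.51 at 1 h and 34.55 at 6 h. BdbZIP37 (bradi2g24120) reached 2.29 with Ct values of 36.75, 38.35 and 37.18. At such Ct values few template molecules enter a reaction, and the size of both changes is loose. In all, 8 genes needed 35 cycles or more in 1 or more of the 3 samples: BdbZIP1, BdbZIP10, BdbZIP14, BdbZIP28, BdbZIP37, BdbZIP47, BdbZIP60 and BdbZIP64.

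The lowest gene at 6 h was BdbZIP52 (bradi3g00300), with Ct values of 29.83 in CK2, 30.59 at 1 h and 34.60 at 6 h and a log2 change of −2.05, or 0.24-fold. BdbZIP4 (bradi1g12620) was at −1.60 with 29.81, 31.59 and 34.13 cycles, and BdbZIP72 (bradi3g57960), an ABF-type gene, at −1.47 with 24.18, 25.02 and 28.37 cycles. Values of −1.35 for BdbZIP76, −1.29 for BdbZIP71, −1.21 for BdbZIP40 and −1.09 for BdbZIP23 followed. Of the 7 genes named here, only BdbZIP52 lay beyond the well error.

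**Figure D2:**
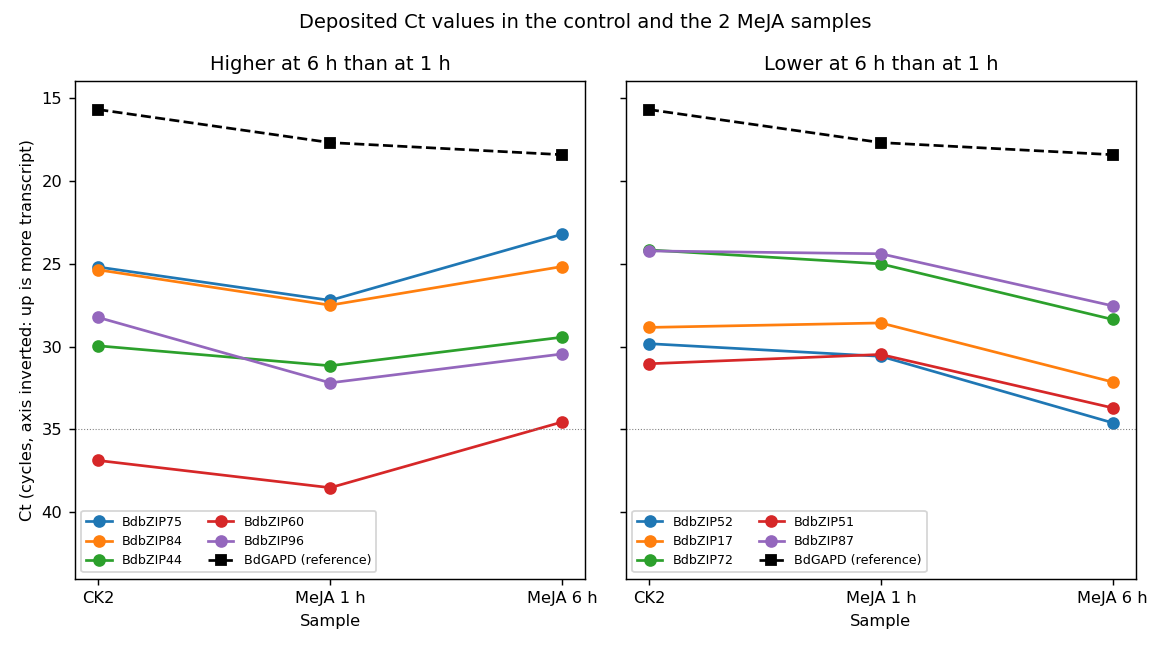
Ct (y axis, inverted so that more transcript is up) in CK2 and in the samples at 1 h and 6 h of MeJA for 5 genes that were higher at 6 h than at 1 h and 5 that were lower, with BdGAPD as the dashed line and a dotted line at 35 cycles. BdGAPD came up later at each step, whereas BdbZIP75 went from 27.22 to 23.23 between 1 h and 6 h and BdbZIP52 from 30.59 to 34.60.

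Gene by gene, 55 of 96 genes were past 2-fold at neither time. Another 8 genes were at least 2-fold higher at both times, namely BdbZIP2, BdbZIP3, BdbZIP6, BdbZIP25, BdbZIP50, BdbZIP54, BdbZIP62 and BdbZIP66, and no gene was at most 0.5-fold at both. At 1 h alone 11 genes were higher and 2 lower, and at 6 h alone 11 were higher and 5 lower. The remaining 4 genes, BdbZIP1, BdbZIP14, BdbZIP52 and BdbZIP72, were higher at 1 h and lower at 6 h. Over all genes, 24% were at least 2-fold higher at 1 h and 19.8% at 6 h, and 2.08% and 9.38% were at most 0.5-fold. The 2-fold cut, a log2 change of 1, is close to the SD of 0.97 for a single change. Of the genes higher at both times, only BdbZIP6 and BdbZIP25 were beyond the well error of 1.93 at both. Both sets of values use the same CK2 sample, so its own error enters both.

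The direct difference between the times does not use CK2, and BdGAPD differed between these samples by only 0.73 cycles. At 6 h, 10 genes were at least 2-fold higher than at 1 h (10.4%) and 18 were at most 0.5-fold (18.8%), around a median of −0.05, and with no reference 6 were higher (6.25%) and 42 lower (43.8%). Beyond 1.93 were 5 higher genes (5.21%) and 10 lower genes (10.4%). The highest were BdbZIP75 at 4.72, BdbZIP60 at 4.69, BdbZIP84 at 3.06, BdbZIP96 at 2.47 and BdbZIP44 at 2.45, and BdbZIP37 at 1.90, BdbZIP80 at 1.63 and BdbZIP82 at 1.44 came next. Among them BdbZIP96 differed in kind, since it was low at 1 h and close to CK2 at 6 h, whereas BdbZIP75 and BdbZIP84 were close to CK2 at 1 h and high at 6 h. The lowest were BdbZIP52 and BdbZIP1, both at −3.28, followed by BdbZIP17 at −2.83, BdbZIP72 at −2.62, BdbZIP51 at −2.49, BdbZIP14 at −2.46, BdbZIP87 at −2.41 and BdbZIP76 at −2.26. For BdbZIP72 the fall from 1 h to 6 h was to 0.16-fold, and for BdbZIP52 to 0.10-fold.

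**Figure D3:**
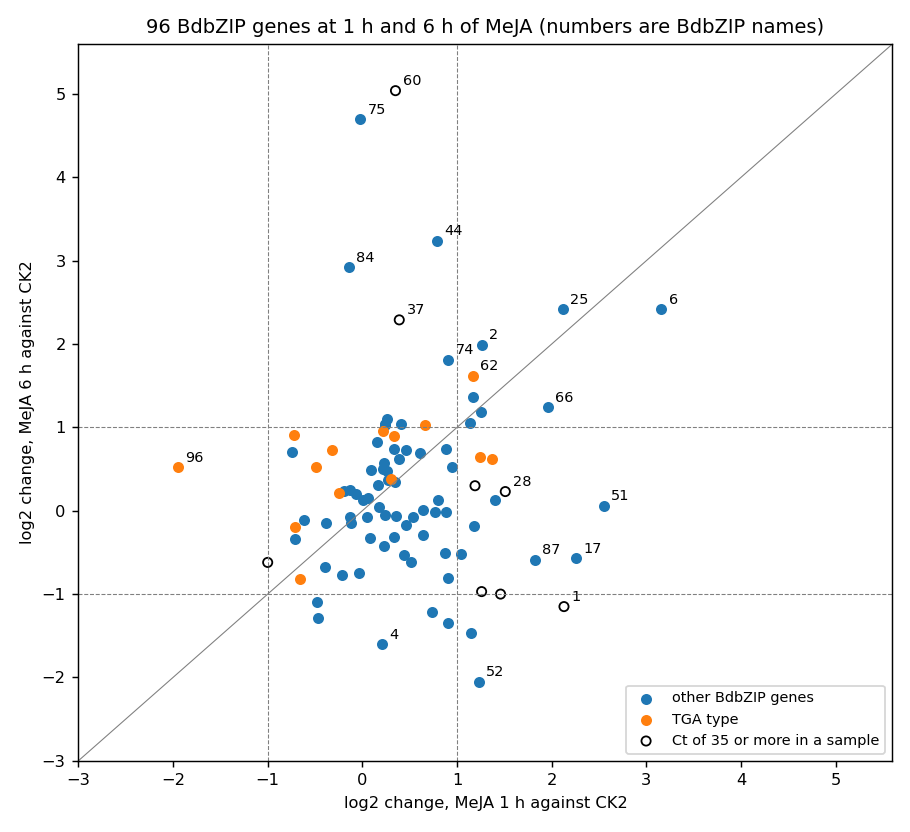
Log2 change against CK2 at 1 h (x axis) and 6 h (y axis) of MeJA for the 96 BdbZIP genes, with TGA-type genes in orange, genes with a Ct of 35 or more as open circles, dashed lines at 2-fold and the solid line where both times are equal. BdbZIP75 and BdbZIP60 lie near 0 on the x axis and above 4 on the y axis, and BdbZIP52, higher at 1 h, lies at −2.05 at 6 h.

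The TGA type, 14 genes whose listed homologues are Arabidopsis or rice TGA factors or PAN, was mostly lower at 1 h than at 6 h relative to BdGAPD. At 1 h its median log2 change was −0.02, against 0.34 over all genes, with 7 of 14 genes above 0. At 6 h the median was 0.64, against 0.20 over all genes, with 12 of 14 above 0. The value at 6 h was above that at 1 h in 11 of 14 TGA genes, with a median difference of 0.49, and in 46 of all 96 genes. With no reference the direction turned, to a median of −0.24 with 5 of 14 genes above 0, against −0.78 and 15 of 96 over all genes, and with the median gene as reference the median was 0.68 with 12 of 14 above 0, against 0.14 and 54 of 96. In that comparison 4 of the 14 were past 2-fold on the high side and none on the low side, beside 10.4% and 18.8% of all genes. These 4 were BdbZIP96 (2.47), BdbZIP80 (bradi4g26670, 1.63), BdbZIP81 (bradi4g27100, 1.05) and BdbZIP45 (bradi2g52860, 1.01). BdbZIP80 had Ct values of 26.40 in CK2, 29.11 at 1 h and 28.21 at 6 h, and BdbZIP81 had 25.56, 27.87 and 27.55. All 4 were below CK2 at 1 h and above it at 6 h, and of the 4 only BdbZIP96 exceeded the well error.

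Against CK2 itself, 3 of the 14 TGA genes were at least 2-fold higher at 1 h (21.4%, beside 24% of all genes) and 2 at 6 h (14.3%, beside 19.8%). BdbZIP62 (bradi3g15590), with 28.37, 29.19 and 29.47 cycles, was higher at both times, at 1.17 and 1.62. BdbZIP34 (1.24) and BdbZIP48 (1.37) were higher at 1 h and at 0.65 and 0.62 at 6 h, and BdbZIP24 was higher at 6 h, at 1.03, after 0.66. BdbZIP49, read with the primers of BdbZIP48, gave 0.30 and 0.38. Of the others, BdbZIP30 stood at 0.22 and 0.96, BdbZIP5 at 0.33 and 0.90, BdbZIP85 at −0.25 and 0.21, BdbZIP36 at −0.71 and −0.19, and BdbZIP18, the gene with Arabidopsis PAN as its relative, at −0.66 and −0.82. The last was the lowest TGA gene at 6 h.

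The ABF/ABI5/AREB3 type, 8 genes related to the abscisic acid factors of Arabidopsis, had a median log2 change of 0.20 at 1 h and −0.06 at 6 h. BdbZIP72 moved most, from 1.15 at 1 h to −1.47 at 6 h. BdbZIP47 was at 1.19 and 0.30, with late Ct values of 34.85, 35.65 and 37.27. The other 6 genes were within 2-fold of CK2 at both times, from −0.77 for BdbZIP19 to 0.83 for BdbZIP93, both at 6 h. BdbZIP35 (−0.13 and −0.08), BdbZIP46 (0.24 and −0.05), BdbZIP65 (0.27 and 0.37) and BdbZIP83 (0.08 and −0.33) lay close to CK2. The value at 6 h was above that at 1 h in 3 of the 8 genes, beside 46 of all 96. At least 2-fold higher at 1 h were 25% of the type, beside 24% of all genes. At most 0.5-fold at 6 h were 12.5%, beside 9.38%.

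The G-box factor type, 8 genes related to the G-box binding factors and to the cereal factors of Em and histone genes, had medians of 0.22 and −0.24. BdbZIP31 (bradi2g15940) had Ct values of 20.47 in CK2, 21.28 at 1 h and 23.37 at 6 h, or log2 changes of 1.18 and −0.18, and BdbZIP1, with late Ct values of 33.23, 33.09 and 37.10, had 2.13 and −1.15. The other 6 genes were within 2-fold at both times. Higher calls at 1 h thus made up 25% of the type, beside 24% of all genes, and lower calls at 6 h 12.5%, beside 9.38%. BdbZIP41 and BdbZIP42, which share primers, gave 0.64 and −0.39 at 1 h, so that even the sign was not matched between their wells.

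The HY5 type, 3 genes placed by synteny with a rice relative of Arabidopsis HY5, a promoter of light responses, did not move together. BdbZIP16 (bradi1g36750) had Ct values of 25.51, 26.46 and 28.75 and log2 changes of 1.04 and −0.52, and BdbZIP28 had 32.88, 33.36 and 35.37 cycles, or 1.51 and 0.23. BdbZIP60, the third, stood at 0.35 and 5.04. The 4 genes of the ER stress type are related to Arabidopsis factors that are freed from a membrane under stress or to the rice factor OsbZIP50. All 4 were above CK2 at 1 h, beside 72 of all 96 genes, with a median of 0.84 and none past 2-fold. Relative to BdGAPD all 4 were lower at 6 h than at 1 h, beside 49 of all 96 genes. The difference was −1.38 for BdbZIP8 and −0.67 for BdbZIP9, which share primers, and −0.14 for both BdbZIP15 and BdbZIP38. With the median gene as reference, 2 of the 4 were lower at 6 h and 2 higher.

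Among the 13 RF2a/VIP1-type genes the medians were 0.41 and −0.08. BdbZIP64 was the 1 gene past 2-fold at 1 h (7.69%, beside 24% of all genes), at 1.26, and was at −0.97 at 6 h with a Ct of 36.22. BdbZIP67 (1.04) and BdbZIP68 (1.03) were past 2-fold at 6 h (15.4%, beside 19.8%). The 4 Opaque-2/RISBZ-type genes had medians of 0.82 and 0.24, and BdbZIP2 alone was past 2-fold (25% at both times, beside 24% and 19.8%). The 3 genes of the AtbZIP34 and AtbZIP61 type stayed between −0.75 and 0.64. Of the 39 genes in no list, 12 were at least 2-fold higher at 1 h (30.8%, beside 24% of all genes) and 13 at 6 h (33.3%, beside 19.8%), BdbZIP75, BdbZIP44, BdbZIP84, BdbZIP6 and BdbZIP25 among them, and 7 were at most 0.5-fold at 6 h (17.9%, beside 9.38%).

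**Figure D4:**
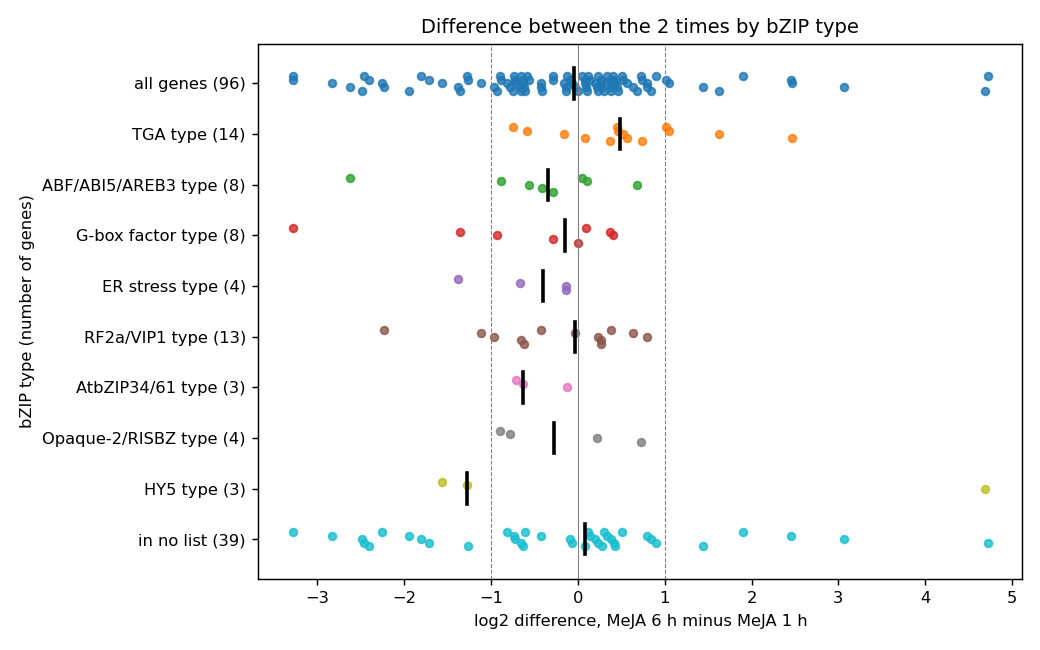
Log2 difference between 6 h and 1 h of MeJA (x axis) by bZIP type (y axis, number of genes in brackets), with 1 point per gene, a black bar at the median and dashed lines at 2-fold. The TGA type has its median at 0.49, against −0.05 over all genes, and the HY5 type has 2 genes below −1 and BdbZIP60 at 4.69.

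The intron patterns, which group the genes by the number and place of introns in the basic and hinge regions, repeat the TGA type in pattern e, all 13 genes of which are TGA genes. Its median was −0.25 at 1 h and 0.62 at 6 h. Pattern h, with 27 genes, had 8 genes that were at least 2-fold higher at 1 h (29.6%, beside 24% of all genes), 9 at 6 h (33.3%, beside 19.8%) and 6 that were at most 0.5-fold at 6 h (22.2%, beside 9.38%). Pattern a (23 genes) had medians of 0.41 and −0.01, and pattern b (24 genes) 0.26 and 0.01. The other patterns have 3 genes or fewer.

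Genes with a Ct of 30 or more in CK2 made up much of the higher calls at 1 h. Of these 21 genes, 12 were at least 2-fold higher at 1 h and 9 at 6 h, with median log2 changes of 1.19 and 0.65. The shares over all 96 genes were 24% and 19.8%. Of the 44 genes with a Ct under 25 the counts were 5 and 3, with medians of 0.24 and 0.08. Of the 31 genes in between, 6 and 7 were higher. At most 0.5-fold at 1 h and 6 h were 1 and 3 of the 21 genes, 0 and 2 of the 44 and 1 and 4 of the 31. Over all genes these shares were 2.08% and 9.38%. The classes were cut on the Ct of CK2, which also enters every log2 change. A well that read late in CK2 by error would fall in the class of 30 or more and also show a higher change. These counts therefore cannot tell Ct level from error in CK2, and the part of Ct level in the result was not tested.

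The untreated sample CK1 differed from CK2 in about as many genes as the MeJA samples did, and CK3 in more. Relative to CK2, CK1 had 22 genes at least 2-fold higher (22.9%) and 9 that were at most 0.5-fold (9.38%), and CK3 had 74 (77.1%) and 6 (6.25%), with a BdGAPD Ct of 17.90 in CK1 and 20.08 in CK3. The labels assign these controls to other treatments. Against each of the 3 controls, the genes at least 2-fold higher at 1 h were BdbZIP1, BdbZIP17 and BdbZIP87, and those at most 0.5-fold were BdbZIP10 and BdbZIP96. At 6 h only BdbZIP60 was at least 2-fold higher against each control, while BdbZIP4, BdbZIP14, BdbZIP23, BdbZIP52 and BdbZIP72 were at most 0.5-fold. Late wells enter some of these calls. BdbZIP17 had a Ct of 39.12 in CK3, and BdbZIP1 and BdbZIP60 had 38.2 and 38.77 in CK1 and 37.49 and 39.29 in CK3. Under MeJA, BdbZIP10 needed 37.4 cycles at 1 h and BdbZIP14 36.61 at 6 h. BdbZIP87, BdbZIP96, BdbZIP4, BdbZIP23, BdbZIP52 and BdbZIP72 stayed under 35 cycles in the controls and both MeJA samples. BdbZIP75 at 6 h was at 5.11 against CK1 and 0.31 against CK3, and BdbZIP84 at 1.56 and −2.42. The difference between 6 h and 1 h involves no control.

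Across the 34 distinct samples of the series, a level was also taken relative to the median BdbZIP gene of each sample. By this measure BdbZIP60 and BdbZIP84 had their highest level of the series in the MeJA sample at 6 h, BdbZIP2 ranked 2 there, BdbZIP75 and BdbZIP81 ranked 3, and BdbZIP44 ranked 6. In CK2 the same measure put BdbZIP84 at rank 28, BdbZIP44 at rank 30 and BdbZIP75 at rank 23. BdbZIP76 and BdbZIP51 ranked 2 at 1 h and 16 and 15 at 6 h. Relative to BdGAPD, no gene had its highest or lowest level of the series in either MeJA sample, and BdbZIP84 ranked 12 and BdbZIP60 and BdbZIP75 ranked 6 at 6 h. The order of a gene among samples therefore shifts with the reference.

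The high level of BdbZIP75 at 6 h was shared by other treatments. Relative to the median gene it was at 4.84 cycles in the MeJA sample at 6 h, while the other 13 samples taken at 6 h ran from −2.71 (heat) to 5.32 (6-BA) with a median of 3.14. In the MeJA sample at 1 h it was at −0.07, and the other 7 samples at 1 h ran from −4.73 (heat) to 0.36 (6-BA) with a median of 0.08. BdbZIP84, at 2.90 under MeJA at 6 h, had a median of 1.25 in the other samples at 6 h and −0.54 in those at 1 h. BdbZIP44, at −1.36, had medians of −2.67 and −4.39. These are levels, and the samples include treatments with other controls. The part of sampling time in these changes was not tested.

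**Figure D5:**
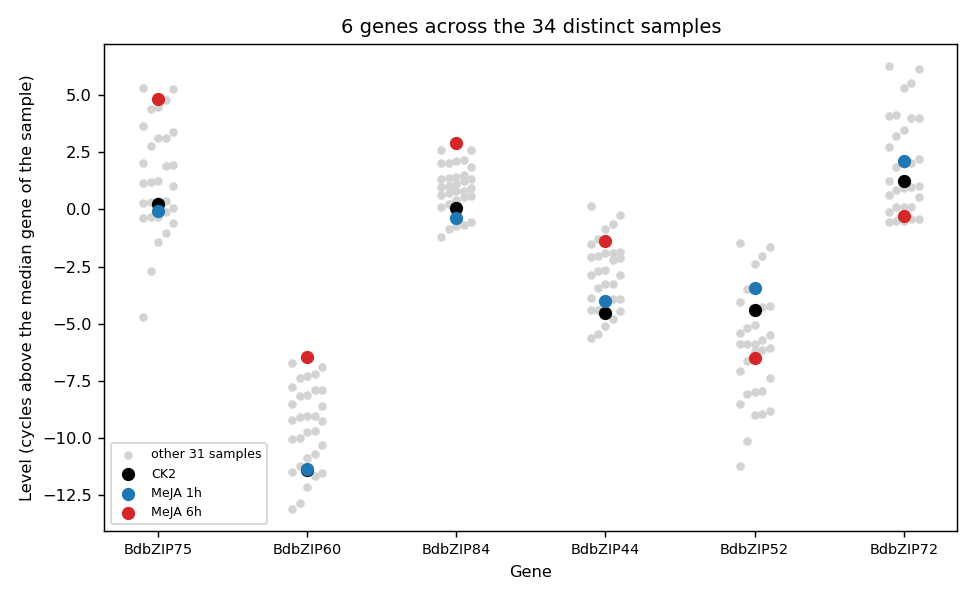
Level of 6 BdbZIP genes (x axis) in each of the 34 distinct samples, in cycles above the median BdbZIP gene of the sample (y axis), with CK2 in black, MeJA 1 h in blue, MeJA 6 h in red and the other samples in grey. The 6 h sample is the highest for BdbZIP60 and BdbZIP84 and ranks 3 for BdbZIP75.

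Abscisic acid (ABA), given at the same concentration and times and referred to the same CK2, allowed a direct comparison of the hormones in which CK2 drops out. At 1 h, 18 genes were at least 2-fold higher under MeJA than under ABA (18.8%) and 6 were at most 0.5-fold (6.25%), but the BdGAPD Ct of these samples differed by 2.98 cycles. At 6 h it differed by 0.31 cycles, and 11 genes were higher under MeJA (11.5%) and 18 lower (18.8%). BdbZIP44, with a Ct of 29.44 under MeJA and 32.57 under ABA, was higher under MeJA by 3.44, BdbZIP84 (25.18 and 28.13 cycles) by 3.26 and BdbZIP60 (34.55 and 37.19) by 2.95. BdbZIP75 was above CK2 under both hormones at 6 h, at 4.70 under MeJA and 3.32 under ABA. BdbZIP6 (3.84), BdbZIP25 (2.8), BdbZIP4 (−1.65) and BdbZIP52 (−1.39) also lay past 2-fold under ABA at 6 h, in the direction of MeJA. BdbZIP44 (−0.2), BdbZIP84 (−0.34), BdbZIP2 (0.76), BdbZIP76 (−0.84), BdbZIP71 (0.74) and BdbZIP40 (−0.95) did not. At 1 h under ABA, BdbZIP96 (−2.19), BdbZIP1 (4.11) and BdbZIP87 (1.58) were past 2-fold as under MeJA. BdbZIP6 (−0.15), BdbZIP51 (−0.07), BdbZIP17 (0.47), BdbZIP25 (0.04) and BdbZIP66 (−0.12) were not.

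Genes lower under MeJA than under ABA at 6 h included G-box and ABF-type genes. BdbZIP1 (37.10 and 31.30 cycles) differed by −5.49, and BdbZIP42 and BdbZIP41, which share primers, by −3.61 and −2.87. Against CK2 these genes were at 4.34, 2.93 and 2.58 under ABA and at −1.15, −0.68 and −0.29 under MeJA. Of the 8 G-box genes, 6 were lower under MeJA and 2 higher, BdbZIP53 (0.42) and BdbZIP89 (0.20), with a median of −0.895. At most 0.5-fold were 4 of these 8, beside 18.8% of all genes, with BdbZIP31 (−1.51) as the fourth. Of the 8 ABF-type genes, all were lower under MeJA, beside 51 of all 96 genes, with a median of −1.09 against −0.08 over all genes. At most 0.5-fold were 4 of the 8, beside 18.8% of all genes: BdbZIP72 (−2.59), BdbZIP19 (−2.12), BdbZIP83 (−1.49) and BdbZIP65 (−1.31). Against CK2 these 4 were at 1.12, 1.35, 1.16 and 1.68 under ABA and at −1.47, −0.77, −0.33 and 0.37 under MeJA. Of the 14 TGA genes, 13 were higher under MeJA, beside 44 of all 96 genes, with a median of 0.40. At least 2-fold higher were 3 of the 14, beside 11.5% of all genes: BdbZIP34 (2.08), BdbZIP49 (1.21) and BdbZIP48 (1.08). At 1 h the medians of these lists were −0.14 for the G-box type, 0.15 for the ABF type and 0.22 for the TGA type, against 0.36 over all genes.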

How the data were processed

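Expression was measured by SYBR Green qPCR of 40 cycles in 35 samples, 1 per condition. Of the 3 tables, one holds the Ct values deposited without normalization (another unit, in cycles), 1 per well and sample. How the repeated qPCR runs were combined is not given in the sources used here. Another holds expression that the authors deposited as a ratio to BdGAPD, and the last holds fold changes, a ratio to the control that the authors deposited, which served only to name the wells, while the normalized table served as an alternative source. The deposited normalized MeJA columns share the direction of the deposited fold changes.

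Wells were named through the study's list of stress fold changes: all 28 values equalled those of 1 well for 96 of 96 genes. The study's tissue list names 95 of the genes by another well. With the names used, same-primer wells differed by medians of 0.26 to 1.38 cycles over the samples, and with the tissue list's names by 1.24 to 13.6. The PEG 1 h column equals H2O2 6 h and was left out of the ranks.

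Log2 changes were −ΔΔCT with BdGAPD, and a gene was called at 2-fold or 0.5-fold. A Ct gives no count of molecules, so the depth is unknown. The members and lists were chosen with earlier results of these data known. Genes named are the 6 highest and 6 lowest of each comparison with Ct under 35, late genes, TGA and ABF types, same-primer genes and those at an extreme of the series, with others of the lists chosen after their values were seen, as were the Ct classes, the levels by sampling time, the lists under other references and the joint count over controls. Alternatives changed the control, reference, genes, threshold and source. The calculation was tested on simulated data with known changes, a fixed shift of all wells and no noise in BdGAPD. That test checks the arithmetic only, and does not cover variation of BdGAPD or of the control. Gene positions and sequences were not used here. Python 3.11.15, numpy 2.4.6, pandas 2.3.3 and matplotlib 3.10.9 were used.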

Additional observations from a re-analysis of the deposited data

Results flagged for a closer look

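Relative to BdGAPD, 4 genes were at least 2-fold higher than CK2 at 1 h and at most 0.5-fold at 6 h, opposite directions at the 2 times. With 1 sample per time the difference was not tested. From 1 h to 6 h the log2 difference was −3.28 for BdbZIP52, −2.62 for BdbZIP72, −3.28 for BdbZIP1 and −2.46 for BdbZIP14. BdbZIP1 and BdbZIP14 had late Ct values of 37.10 and 36.61 at 6 h. With the median gene as reference, BdbZIP52 (0.94) and BdbZIP72 (0.86) were not past 2-fold at 1 h. Before any reference was subtracted, the Ct of BdbZIP52, BdbZIP72 and BdbZIP14 was above that of CK2 at both times. The gaps were 0.76, 0.84 and 0.53 cycles at 1 h and 4.77, 4.19 and 3.72 at 6 h. Only BdbZIP1 kept opposite signs, with Ct changes of −0.14 cycles at 1 h and 3.87 at 6 h. Its change at 1 h is smaller than the median gap of 0.56 cycles between same-primer wells, so its direction at 1 h is not resolved.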

How the results depend on the processing

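Single samples, 1 reference gene and 1 control well per gene limit every value, and changes below the well error are not resolved. Counts were taken as unchanged within 1.5 times and medians within 0.1.

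At 1 h the 23 higher and 2 lower genes became 10 and 65 against CK3, 12 and 32 against the mean of the 3 controls, 1 and 73 with no reference gene, 11 and 4 with the median of the 96 genes as reference, and 71 and 1 in the deposited normalized table, whose MeJA columns run in the opposite direction. Lower genes numbered 16 against CK1 and 1 with only Ct under 35. A 1.5-fold threshold gave 38 and 8 and a 4-fold threshold 5 and 0. The median of 0.34 became 0.12 (CK1), −2.44 (CK3), −0.69 (mean of controls), −1.64 (no reference), 0.06 (median gene) and 1.66 (normalized table).

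At 6 h the 19 higher and 9 lower genes became 9 and 69 against CK3, 9 and 31 against the mean of the controls, 2 and 87 with no reference gene and 87 and 1 in the normalized table, and 21 were lower against CK1. The thresholds gave 32 and 18 (1.5-fold) and 7 and 1 (4-fold). The median of 0.20 became 0.01 (CK1), −2.18 (CK3), −0.61 (mean of controls), −2.52 (no reference) and 2.56 (normalized table).

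Between the times the 10 higher and 18 lower genes became 6 and 42 with no reference gene and 42 and 4 in the normalized table, and the thresholds gave 18 and 36 (1.5-fold) and 5 and 9 (4-fold). The median of −0.05 became −0.78 (no reference), 0.14 (median gene) and 0.81 (normalized table). Other counts and medians of the 3 comparisons, those with same-primer wells averaged among them, stayed within these limits.

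With no reference gene the sign turned in 18 of the 23 higher genes at 1 h and 15 of the 19 at 6 h. Among the extreme and late genes these were BdbZIP66 (−0.03), BdbZIP87 (−0.17), BdbZIP14 (−0.53), BdbZIP28 (−0.48), BdbZIP47 (−0.80) and BdbZIP64 (−0.73) at 1 h and BdbZIP25 (−0.30), BdbZIP6 (−0.30), BdbZIP2 (−0.73) and BdbZIP37 (−0.43) at 6 h. Against the mean of the controls it turned in 5 of the 23 and 4 of the 19, with BdbZIP28 (−1.22) and BdbZIP64 (−0.97) at 1 h and BdbZIP37 (−0.69) at 6 h among them. BdbZIP16 and BdbZIP72 at 1 h also turned. Against this mean, 13 of the 23 and 12 of the 19 were no longer past 2-fold, nor were 3 of the 9 lower genes at 6 h, BdbZIP1, BdbZIP40 and BdbZIP76. With the median gene as reference no called gene changed sign, but 12 of the 23 and 5 of the 19 were no longer past 2-fold. No lower gene turned under these settings. With wells named by the tissue list, the TGA medians were 0.34 at 1 h, 0.51 at 6 h and 0.18 between them, and the ABF medians 0.91 at 1 h and 0.97 at 6 h. The part of each setting beyond its own construction was not tested.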
